A study of Mus musculus with 175 samples.

Results

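The mouse gene annotation deposited with these data names 59 protein-coding Rab GTPase genes, of 21973 protein-coding genes and 49585 mouse features in all. They were taken by name: every protein-coding gene whose symbol is Rab followed by a number and at most a letter and a further digit. Rab-like genes and the genes for Rab regulators and effectors are not members under this rule. The expression of the 59 genes was measured by single-cell RNA sequencing of sorted fetal liver progenitors at embryonic day 14.5.

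Rab proteins are small GTPases that mark the membranes of the cell. Bound to GTP, a Rab recruits effectors, such as tethers, motors and lipid enzymes, that move, dock and fuse vesicles at 1 kind of compartment. Exchange factors load GTP, GTPase-activating proteins end the signal, and escort proteins and a dissociation inhibitor carry the prenylated Rab between membrane and cytosol. Most Rabs serve routes that every cell runs, from the endoplasmic reticulum through the Golgi to the surface and back through endosomes. A smaller group serves secretory granules and lysosome-related organelles, the compartments that include platelet granules, mast cell granules and melanosomes. Megakaryocytes build platelet granules, while erythroid precursors depend on recycling endosomes for the return of the transferrin receptor.

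The study sorted megakaryocyte-erythroid progenitors (MEPs, CD34-) and common myeloid progenitors (CMPs, CD34+), both CD41- and CD150+, from livers of C57BL/6 mice crossed with ICR, and split each by human CD4 (hCD4), a surface reporter inserted behind the P2 promoter of one Runx1 allele. RUNX1 is a transcription factor of blood development with a distal (P1) and a proximal (P2) promoter, and the comparison asks how progenitors with an active P2 promoter (P2+) differ from those without (P2-). Every cell carried the reporter alleles, written P2-hCD4/+ together with a GFP allele that the labels place at P2 in the genotype and at P1 in the protocol. The deposited libraries were 57 and 48 MEPs (P2- and P2+) and 27 and 43 CMPs (P2- and P2+), of which 56, 47, 27 and 42 passed the filters on depth and quality. The labels call the CMPs low and high, which were read as P2- and P2+, and 1 P2- CMP carries a second label that names it a MEP. The labels describe the source as livers of 2 litters combined in 1 pool, so each population is 1 sample, no test between populations was possible, and no p-value is given.

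The passed cells held between 295064 and 1540631 reads on mouse genes, and the summed reads per population were between 18334696 in P2- CMPs and 36351033 in P2+ CMPs. Levels are counts per 1000000 reads on mouse genes (CPM), pooled over the cells of a population, and levels of different genes are compared only per kilobase of exon (CPM per kb). Ratios are log2 ratios of pooled CPM with a 95% interval, which covers counting error only and neither the spread between mice nor PCR copies, since the reads carry no molecular identifiers. The sorted identities were checked against marker lists. The 12 erythroid markers summed to 2310 and 1256 CPM in the P2- and P2+ MEPs and 866 and 475 CPM in the P2- and P2+ CMPs. Granulocyte and monocyte markers summed to 16.3 and 83.5 CPM in P2- and P2+ MEPs and to 570.0 and 838 CPM in P2- and P2+ CMPs, which follows the labels.

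Of the 59 Rab genes, 53 were read in 1 or more cells and 42 had reads in all 4 populations. The 6 genes without a read in any passed cell were Rab3b, Rab3c, Rab6b, Rab7b, Rab9b and Rab39b. A further group was rare: 18 members, these 6 included, were read in fewer than 5% of the cells, whereas 9 members were read in at least 90%. A gene was assessed in a comparison when at least 25% of the cells of either population had a read and the higher pooled level was at least 5 CPM. By this rule 33 members were assessed in at least 1 comparison and 29 in all 4, and the others were too sparse for a ratio at this depth. Single cells carried a similar number of Rab genes everywhere. With each cell thinned to 100000 reads, the median cell read 20 members among MEPs, P2- and P2+ alike, 21 members among the P2- CMPs and 22 among the P2+ CMPs.

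Per kilobase and pooled over all cells, the highest Rab was Rab7, the Rab of late endosomes and lysosomes (chromosome 6, 87999106 to 88045270, minus strand, GRCm38), with 65.0 CPM per kb. The order differed between populations, and Rab7 led in P2- CMPs alone, with 67.6 CPM per kb. Rab4a led in the MEPs, with 82.2 and 68.6 CPM per kb (P2- and P2+) against 67.3 and 60.6 for Rab7, and Rab2a in P2+ CMPs, with 69.1 against 65.4 CPM per kb. The pooled level of Rab7 was 176 and 158 CPM in the P2- and P2+ MEPs and 176 and 171 CPM in the P2- and P2+ CMPs. For Rab7, single P2- MEPs lay between 9.97 and 303.8 CPM with a median of 168, and the cells of the 4 populations overlapped almost entirely. Over all cells Rab4a, which drives rapid recycling from early endosomes, was the next with 58.1 CPM per kb, though at 35.8 and 39.9 in the CMPs (P2- and P2+), then Rab2a and Rab1b, which act between the endoplasmic reticulum and the Golgi, with 55.99 and 47.96. Pooled, Rab2a was at 115 and 100.5 CPM (P2- and P2+ MEPs) and at 104 and 147 CPM (P2- and P2+ CMPs), and Rab1b at 94.6, 119, 103 and 116 CPM in that order. Rab24, a Rab linked to autophagy, was the fifth with 41.7 CPM per kb, but 62.4% of its exon bases overlap Prelid1, and reads on bases shared by 2 genes were not counted. Its pooled levels were 97.2 and 88.1 CPM for P2- and P2+ MEPs, and 64.96 and 79.0 CPM for P2- and P2+ CMPs.

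**Figure D1:**
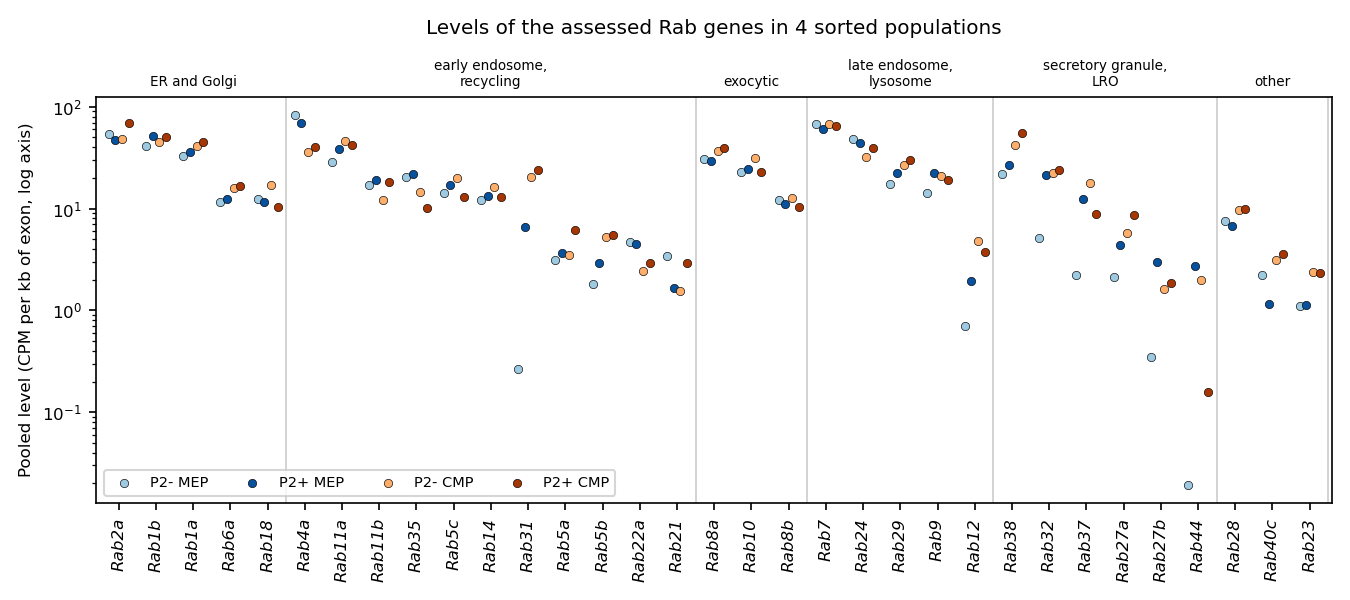
Pooled level of each of the 33 assessed Rab genes (CPM per kb of exon, log axis) in the 4 sorted populations, with genes grouped by role and ordered by level; LRO stands for lysosome-related organelle, and each point is 1 pooled population without a replicate. The points of most genes lie close together, while Rab31, Rab32, Rab37, Rab27b and Rab44 have a P2- MEP point far below the P2+ MEP point.

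Summed over all 59 genes, the Rab level was 1881 CPM (95% interval 1865 to 1896) and 2109 CPM (2093 to 2125) for P2- and P2+ MEPs, and 2317 CPM (2295 to 2340) and 2323 CPM (2307 to 2339) for P2- and P2+ CMPs. Single cells ranged widely within each population, from 1336 to 2615 CPM in P2- MEPs and from 1257 to 3039 CPM in P2+ MEPs, so the populations overlapped. For P2+ over P2- cells this gave a log2 ratio of 0.17 (0.15 to 0.18) among MEPs and 0.00 (-0.01 to 0.02) among CMPs. The summed level of CMPs over MEPs was 0.30 on the log2 scale among P2- cells and 0.14 among P2+ cells.

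Most of the members past 2-fold between P2+ and P2- MEPs belong to 1 functional class. Of 30 assessed members, 6 were higher in P2+ MEPs by at least 2-fold (20% of members, against 7.31% of all 8155 assessed protein-coding genes). They were Rab44, Rab31, Rab27b, Rab37, Rab32 and Rab27a, and 5 of them belong to the class of secretory granules and lysosome-related organelles. Only Rab21 was lower by that much (3.33% of members, against a background of 3.64%). The median log2 ratio was 0.14 over the members and 0.00 over all assessed genes. Of these 6 genes, Rab44, Rab31, Rab27b and Rab27a reached the 25% of cells in P2+ MEPs alone, so they could enter this count only through the population where they were higher. The granule class has 11 members, of which 6 were assessed, and the sixth, Rab38, had a log2 ratio of 0.30 (0.19 to 0.42). The other 5 were too sparse to be assessed, and 2 of them were lower in P2+ MEPs. Rab3d, a Rab of regulated exocytosis, had levels of 6.83 and 2.85 CPM among P2- and P2+ MEPs (-1.26 on the log2 scale, -1.63 to -0.90), and its relative Rab3a was at -0.43 (-0.85 to -0.01). Rab26 was at 0.04 (-0.54 to 0.61), and Rab3b and Rab3c had no read.

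The upstream sequences of 3 of the 6 genes are given because the genes were higher in the MEPs sorted for an active Runx1 promoter, and RUNX1 and GATA1 are known regulators of megakaryocyte and erythroid genes. Rab44, Rab27b and Rab37 have no entry in the table of upstream sequences. The windows shown are the 250 bases before the RefSeq start site on the strand of the gene (GRCm38.p6), and capitals mark matches on either strand to the RUNX motif (TGTGGT or TGCGGT) or the GATA motif (AGATAA as well as TGATAA, and also AGATAG as well as TGATAG).
Rab31, chr17:65772753-65773002, minus strand: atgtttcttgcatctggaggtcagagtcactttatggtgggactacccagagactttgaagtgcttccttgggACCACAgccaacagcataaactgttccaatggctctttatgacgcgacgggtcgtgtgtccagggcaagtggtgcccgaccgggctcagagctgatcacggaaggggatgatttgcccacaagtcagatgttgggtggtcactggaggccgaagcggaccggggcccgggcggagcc
Rab32, chr10:10558208-10558457, minus strand: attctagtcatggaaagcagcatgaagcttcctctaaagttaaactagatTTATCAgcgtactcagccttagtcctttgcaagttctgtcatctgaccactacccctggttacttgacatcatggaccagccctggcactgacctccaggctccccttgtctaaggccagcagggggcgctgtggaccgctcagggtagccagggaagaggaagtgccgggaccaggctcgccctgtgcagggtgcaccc
Rab27a, chr9:73044560-73044809, plus strand: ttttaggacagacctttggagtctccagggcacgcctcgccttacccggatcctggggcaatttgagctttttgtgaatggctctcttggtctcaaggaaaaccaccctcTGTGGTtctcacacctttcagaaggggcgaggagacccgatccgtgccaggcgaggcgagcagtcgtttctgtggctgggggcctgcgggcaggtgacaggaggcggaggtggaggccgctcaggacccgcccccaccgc
The Rab31 window holds a RUNX match at 172 to 177 bases before the start, the Rab27a window a RUNX match at 135 to 140 bases, and the Rab32 window a GATA match at 195 to 200 bases. Rab27a has a further start site, whose window holds neither motif. A RUNX match stands in 18.6% and a GATA match in 26.5% of the 32851 windows of all genes, and in 20% and 21.7% of the 60 windows of the 48 Rab genes in the table. A match is a run of letters and was not tested as a site.

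Rab31 (chromosome 17, 65651729 to 65772752, minus strand), a close relative of Rab22a that carries cargo between the trans-Golgi network and endosomes, was at 1.01 and 24.99 CPM in the P2- and P2+ MEPs and 77.8 and 90.9 CPM in the P2- and P2+ CMPs. It was nearly absent from P2- MEPs, where 2 of 56 cells had a read, against 12 of the 47 P2+ cells, while 17 of 27 and 34 of 42 CMPs (P2- and P2+) had one. Its log2 ratio was 4.62 (4.11 to 5.19) for P2+ over P2- MEPs. In both MEP populations the median cell had 0 CPM, and the highest P2+ MEP reached 173 CPM against 34.9 CPM in P2- MEPs.

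Rab44 (chromosome 17, 29114145 to 29148980, plus strand), an unusually large Rab known from mast cell secretion, was at 0.098 and 13.9 CPM in the P2- and P2+ MEPs and 10.1 and 0.80 CPM in the P2- and P2+ CMPs. The P2- MEP value stands on 3 reads in 1 cell, so the log2 ratio of 7.15 has a wide interval (5.59 to 9.43). Reads came from 12 of 47 P2+ MEPs, and the one with the highest CPM held 8.41% of the reads, though a deeper cell of lower CPM can hold more. Those 12 cells had a median of 51.2 CPM. Rab44 was therefore read in few cells but at a clear level in them.

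Rab27b (chromosome 18), which with Rab27a docks granules at the plasma membrane and is the main Rab27 of platelet dense granule release, was at 3.76 and 31.9 CPM in the P2- and P2+ MEPs and 17.3 and 19.8 CPM in the P2- and P2+ CMPs. P2+ MEPs were the highest of the 4 populations for this gene, with reads in 25 of 47 cells against 9 of 56 P2- MEPs. The log2 ratio in MEPs was 3.09 (2.81 to 3.38). Rab27a (chromosome 9, 73044854 to 73097629, plus strand) was at 8.20 and 17.2 CPM in the P2- and P2+ MEPs and 22.5 and 33.9 CPM in the P2- and P2+ CMPs, and its log2 ratio in MEPs was 1.07 (0.85 to 1.29), just past the 2-fold mark. A single cell held 36.3% of the Rab27a reads of P2- MEPs, and without the highest cell of each population the log2 ratio was 1.45.

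Rab37 (chromosome 11, 115091431 to 115162236, plus strand), a Rab of secretory granules, was the most widely read of the 6 in P2+ MEPs and P2- CMPs. Rab32 was read in more of the P2- MEPs and Rab31 in more of the P2+ CMPs. The level of Rab37 was 11.8 and 65.8 CPM in the P2- and P2+ MEPs and 94.4 and 47.01 CPM in the P2- and P2+ CMPs, and the log2 ratio in MEPs was 2.48 (2.32 to 2.65). The median P2+ MEP had 50.8 CPM, against 0 CPM in the median P2- MEP, and 35 of 47 and 14 of 56 cells had a read. The ranges still overlapped, since single P2- MEPs reached 131 CPM and 12 P2+ MEPs had no read.

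Rab32 (chromosome 10, 10545002 to 10558265, minus strand) and Rab38 (chromosome 7, 88430273 to 88491572, plus strand) are close relatives that deliver cargo to melanosomes and platelet dense granules, and the BLOC-3 complex of Hps1 and Hps4 is their exchange factor. Rab32 was at 12.1 and 49.6 CPM in the P2- and P2+ MEPs and 51.9 and 55.9 CPM in the P2- and P2+ CMPs, with a log2 ratio of 2.04 (1.87 to 2.20) in MEPs. Rab38 was at 34.2, 42.3, 66.2 and 87.0 CPM in the same order and differed between P2- and P2+ MEPs by less than 2-fold. The 2 relatives thus differed unequally between the MEP populations.

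**Figure D2:**
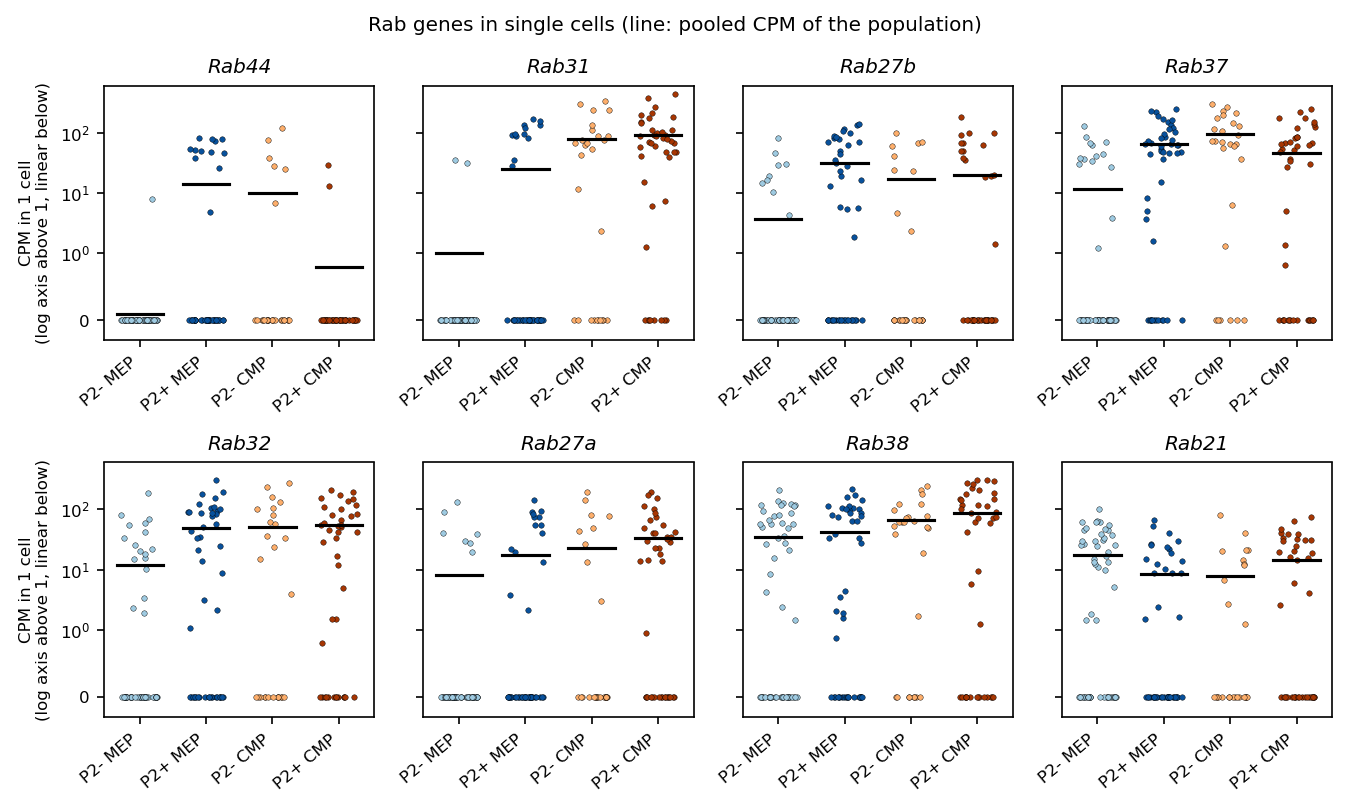
CPM in single cells (axis linear below 1 and logarithmic above) for the 6 Rab genes higher in P2+ MEPs and for Rab38 and Rab21, with 1 point per cell and a black line at the pooled CPM of the population. Reads of Rab44 and Rab31 come from 1 and 2 of the 56 P2- MEPs and from 12 of the 47 P2+ MEPs each, while Rab38 has reads in similar numbers of P2- and P2+ MEPs (29 of 56 and 28 of 47).

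Joint reads of the 6 genes in single P2+ MEPs are given as a description, since a gene without a read in a cell may still be expressed there. At 100000 reads per cell, Rab44 and Rab31 were each read in 12 cells and together in 6 of them, and Rab44 and Rab27a were read together in 2 cells. Rab27b and Rab37 were read together in 18 cells, of 23 and 32 cells that read either. None of the 6 genes was read in 3 of 47 P2+ MEPs and in 27 of 56 P2- MEPs, a difference that the choice of the genes from these populations fixes, and in 1 of 27 P2- and 0 of 42 P2+ CMPs. Over the 11 members of the granule class, the median P2- MEP read 1 gene and the median cell of each other population 3 genes. At least 3 genes of the class were read in 14.3% and 57.4% of the P2- and P2+ MEPs and in 59.3% and 66.7% of the P2- and P2+ CMPs. The class includes 5 of the 6 genes, so for the MEPs these counts follow from the same choice and add no separate evidence.

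**Figure D3:**
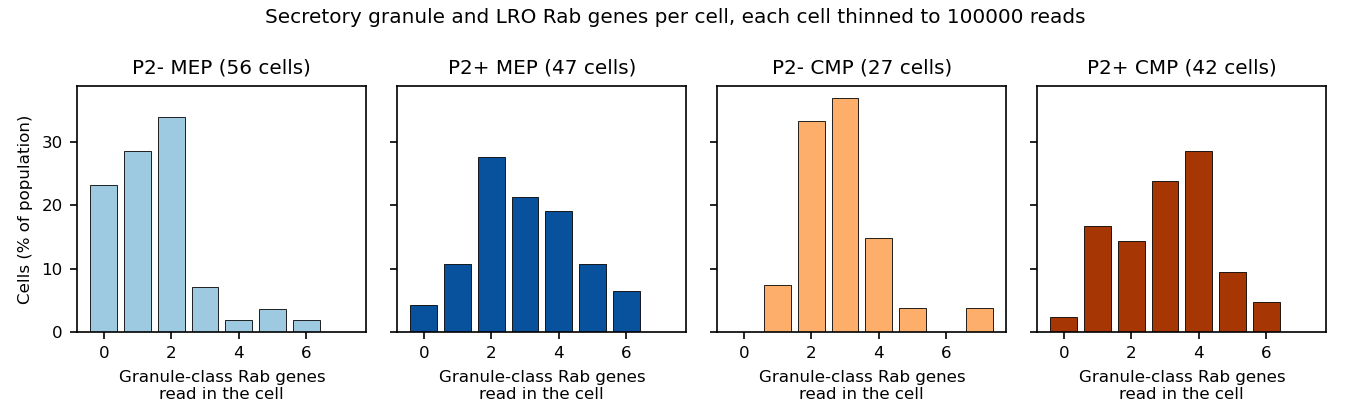
Share of cells (% of the population) by the number of the 11 Rab genes of secretory granules and lysosome-related organelles (LRO) read in the cell after thinning every cell to 100000 reads. P2- MEPs lie mostly at 0 to 2 genes, and the other 3 populations mostly at 2 to 4. Of the 11 genes, 5 were called higher in P2+ MEPs from these same cells.

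The summed level of the granule class was 82.3 CPM (79.2 to 85.6) and 227.9 CPM (222.7 to 233.3) for P2- and P2+ MEPs, and 277.6 CPM (270.04 to 285.3) and 261.3 CPM (256.1 to 266.65) for P2- and P2+ CMPs. The log2 ratio of P2+ over P2- MEPs was 1.47 (1.40 to 1.54) for this class. This sum includes the 5 class members past 2-fold higher in P2+ MEPs, so it restates that count. For the other classes the log2 ratio was between -0.17 for Rabs of other or less settled role and 0.14 for early endosome and recycling Rabs. Per kilobase, the class made up 5.86% of the Rab level of P2- MEPs and 10.996% of that of P2+ MEPs, and 13.7% and 14.1% in P2- and P2+ CMPs.

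Lineage marker lists also differed between the MEP populations. The 12 megakaryocytic markers summed to 120 CPM in P2- MEPs, with Gp9, Gp1bb, Pf4 and Ppbp at 0, and to 732 CPM among the P2+ cells, where Ppbp alone was at 0, and all 9 assessed markers were past 2-fold higher in P2+ MEPs. Single cells ranged from 0 to 455 CPM in P2- MEPs and from 12.2 to 2420 CPM in P2+ MEPs. The sums were 647 CPM in P2- CMPs and 765 CPM in P2+ CMPs, where the summed level of the granule class was not higher in P2+ cells. The 8 stem and multipotent markers summed to 11.7 CPM in P2- MEPs, with Procr and Mecom at 0, and to 130.1 CPM in P2+ MEPs, with Flt3 and Procr at 0, and the 2 that were assessed, Cd93 and Meis1, were both past 2-fold higher. Single cells ranged from 0 to 88.0 CPM and from 0 to 617 CPM for that list, and the CMP sums were 798 and 1159 CPM (P2- and P2+). The 11 granulocyte and monocyte markers, whose sums are given above, had 7 and 2 genes at 0 in P2- and P2+ MEPs, and the 2 that were assessed, Spi1 and Prtn3, were both past 2-fold higher in P2+ MEPs. Within the 47 P2+ MEPs, Spearman's rho of the 6 genes with the summed megakaryocytic markers ran from 0.09 for Rab32 to 0.48 for Rab27b, and with the stem and multipotent markers from -0.03 for Rab44 to 0.35 for Rab27a. With the erythroid markers, of which 6 of 11 assessed were past 2-fold lower in P2+ MEPs, it ran from -0.24 for Rab31 to -0.08 for Rab37 in the same cells, and with the granulocyte and monocyte markers from -0.22 for Rab32 to 0.15 for Rab31. With the megakaryocytic markers it ran from -0.06 to 0.29 in the 56 P2- MEPs, from -0.28 to 0.37 in the 27 P2- CMPs and from -0.33 to 0.30 in the 42 P2+ CMPs. These values describe cells of 1 pool that share depth and dropout. The 7 markers of mast cells and basophils summed to 0.33 and 2.69 CPM (P2- and P2+ MEPs), and Cpa3 was the only one with a read in either, so the defining markers of that lineage were at or near 0. The part of all these marker lists in the granule class result was not tested, and fewer cells with a transcript cannot be told apart from less transcript per cell in the pooled levels.

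Rab21 (chromosome 10, 115287084 to 115315594, minus strand), an early endosome Rab involved in the traffic of integrins, was the member lower in P2+ MEPs. Its level was 17.2 and 8.46 CPM in the P2- and P2+ MEPs and 7.74 and 14.7 CPM in the P2- and P2+ CMPs, with reads in 32 of 56, 19 of 47, 11 of 27 and 21 of 42 cells. The log2 ratio in MEPs was -1.03 (-1.24 to -0.81), so the interval spans the 2-fold mark, and Rab21 was not past it with DESeq2 size factors or with a denominator without mitochondrial genes and Rn18s-rs5.

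Apart from members of the granule class, Rab31 and Rab21, the assessed members differed by less than 2-fold between P2+ and P2- MEPs. The 5 assessed Rabs of the endoplasmic reticulum and Golgi (Rab1a, Rab1b, Rab2a, Rab6a and Rab18) had log2 ratios between -0.19 and 0.33. The 3 exocytic Rabs (Rab8a, Rab8b and Rab10) were between -0.15 and 0.11, and the 4 of late endosomes, lysosomes and autophagy (Rab7, Rab9, Rab24 and Rab29) between -0.15 and 0.67. Of the recycling Rabs, Rab11a, the Rab of the recycling endosome, was at 0.42 (0.34 to 0.49) and Rab4a at -0.26 (-0.32 to -0.20).

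In CMPs no member was higher in P2+ than in P2- cells by at least 2-fold among 32 assessed (background 4.89% of 8629 protein-coding genes), and 1 was lower (3.12% of members, background 4.94%). The members' median log2 ratio was 0.10 and that of all assessed genes -0.03. The member past the mark was Rab37, with 94.4 CPM in P2- CMPs and 47.01 CPM in P2+ CMPs, a log2 ratio of -1.01 (-1.10 to -0.91) whose interval spans the 2-fold mark. Rab37 was read in 21 of 27 P2- CMPs and 27 of 42 P2+ CMPs, and the median cell had 71.7 and 35.5 CPM. Rab37 was not past 2-fold with every cell given equal weight, with DESeq2 size factors or with the denominator without mitochondrial genes and Rn18s-rs5. Without the highest cell of each population Rab21 was past 2-fold higher in P2+ CMPs, at 1.44, so the absence of higher members depended on the processing too. Mast and basophil markers summed to 72.8 CPM in P2- CMPs and 34.2 CPM in P2+ CMPs, nearly all of it Cpa3, a mast cell protease gene, and 5 and 6 of the 7 markers were at 0. Erythroid markers were lower in P2+ CMPs as well, with 4 of 6 assessed (Klf1, Gata1, Epor and Tfrc) past 2-fold. Within the P2- and P2+ CMPs, Spearman's rho of Rab37 was -0.06 and 0.07 with the mast and basophil markers, 0.08 and 0.20 with the erythroid markers and -0.37 and -0.32 with the stem and multipotent markers, over 27 and 42 cells that share depth and dropout. The part of these lists in the Rab37 result was not tested.

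Among the other assessed members in CMPs, Rab21 was the highest at 0.93 (0.66 to 1.20) and Rab5a, a Rab of early endosome fusion, the next at 0.84 (0.66 to 1.02). Rab18, a Rab of the endoplasmic reticulum and lipid droplets, was at -0.74 (-0.82 to -0.66) and Rab5c at -0.60 (-0.74 to -0.47). The granule class had a summed log2 ratio of -0.09 (-0.14 to -0.04) in CMPs, though 4 of its 5 assessed members were above 0 and their median was 0.19. Rab44 was not assessed in CMPs, since 6 of 27 P2- CMPs and 2 of 42 P2+ CMPs had a read, and its pooled levels were 10.1 and 0.80 CPM.

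**Figure D4:**
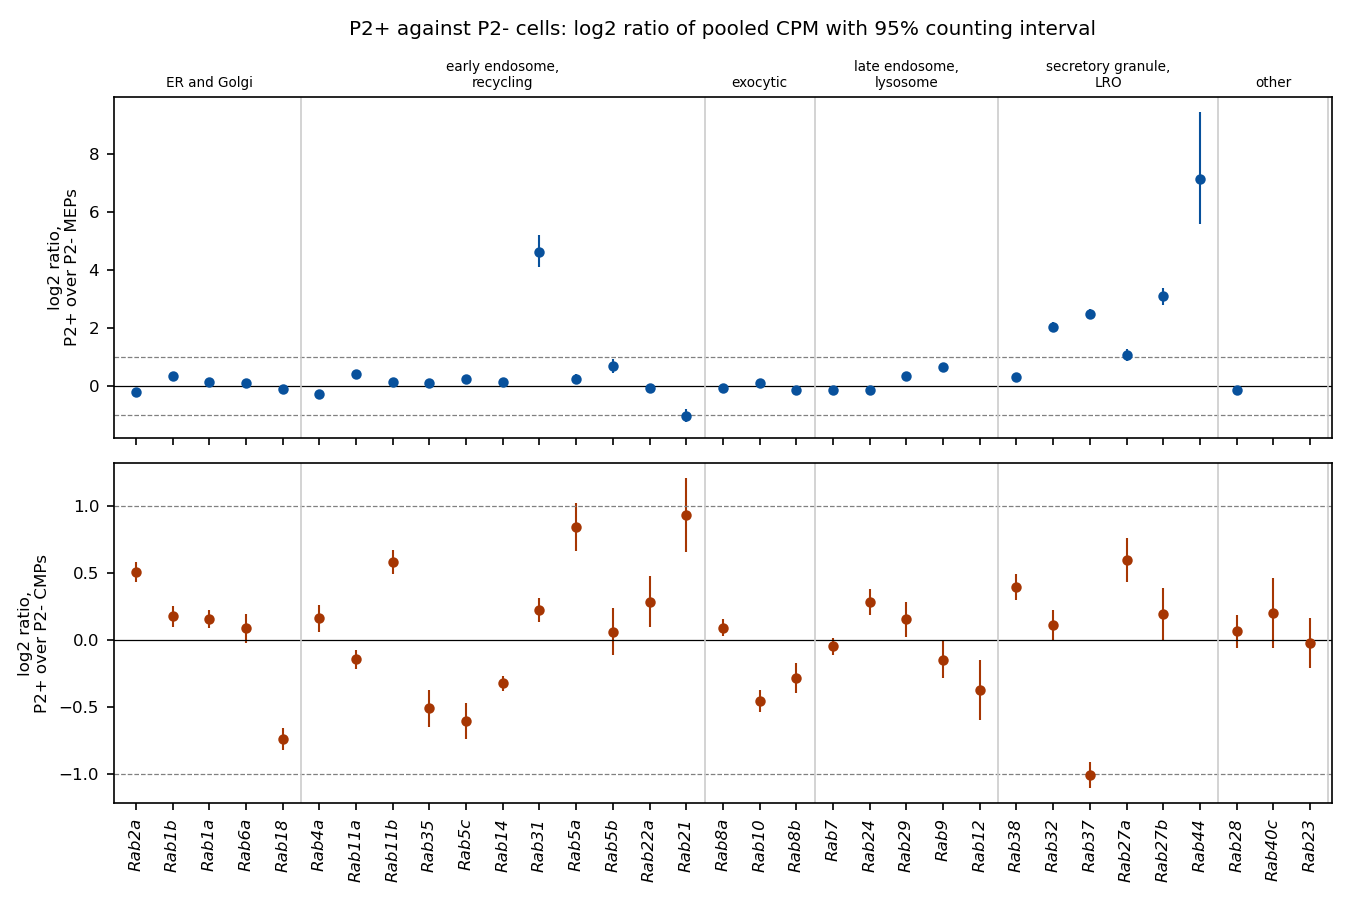
Log2 ratio of pooled CPM, P2+ over P2-, for each assessed Rab gene in MEPs (top) and in CMPs (bottom, with an axis of its own), with 95% counting intervals and dashed lines at the 2-fold marks. In MEPs 6 genes lie above the upper mark and reach 7.15, whereas in CMPs every gene lies within about 2-fold and Rab37 sits at -1.01.

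The comparison of CMPs with MEPs shares its populations with the 2 comparisons above, so its values are given beside them and are not a separate line of evidence. Among P2- cells, 7 of 30 assessed members were higher in CMPs by at least 2-fold (23.3%, background 15.6%) and 2 were lower (6.67%, background 7.17%). The 7 were Rab31, Rab37, Rab27b, Rab32, Rab5b, Rab27a and Rab23, with log2 ratios from 1.11 for Rab23 to 6.26 for Rab31 (5.75 to 6.83). The 2 lower members were Rab4a and Rab21. Of the 7, Rab31, Rab27b, Rab27a and Rab23 reached the 25% of cells in the CMPs alone, the population where they were higher. Among P2+ cells, 4 of 33 members were higher in CMPs (12.1%, background 12.3%) and 2 were lower (6.06%, background 6.96%). The 4 were Rab31, Rab40c, Rab38 and Rab23, and the 2 were Rab44 and Rab35. Rab40c and Rab23 reached the 25% of cells in CMPs alone and Rab44 in MEPs alone, again where each was higher. Among P2+ cells both shares were near the background, and the higher count depended on the processing: it was 2 with DESeq2 size factors, where Rab38 and Rab23 were at 0.95 each, and 7 without the highest cell of each gene, which added Rab12, Rab27a and Rab5b. With equal weight for every cell Rab38 (0.98) and Rab35 (-0.98) were not past 2-fold, and Rab23 was not with every deposited cell (0.99) or, among P2- cells, without the P2- CMP whose second label names a MEP (0.996). Without the highest cell the log2 ratio of Rab44 among P2+ cells was -5.68, against -4.13 with it.

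Marker lists differed between CMPs and MEPs as well. Among P2- cells all 8 assessed stem and multipotent markers, all 5 granulocyte and monocyte markers and 5 of 8 megakaryocytic markers were past 2-fold higher in CMPs, and among P2+ cells 7 of 8, 5 of 5 and 1 of 9 were. Cd34, on the stem and multipotent list, separated CMPs from MEPs in the sort, so the design set its direction. Of the megakaryocytic markers, 1 of 8 among P2- cells and 4 of 9 among P2+ cells were past 2-fold lower in CMPs. The part of these lists in the values of the members was not tested. Rab31 was higher in CMPs on both sides, with a log2 ratio of 1.86 (1.75 to 1.98) among P2+ cells. Rab23, known as an inhibitor of Hedgehog signalling, was at 9.18 and 9.47 CPM in P2- and P2+ MEPs and at 19.8 and 19.4 CPM in P2- and P2+ CMPs. About as many P2- as P2+ CMPs had a read of it, 13 of 27 and 20 of 42. Rab38 was 0.95 (0.83 to 1.07) among P2- cells and 1.04 (0.95 to 1.13) among P2+ cells, on either side of the mark.

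Rab5b, with Rab5a and Rab5c a Rab of early endosome fusion, was at 7.65 and 12.2 CPM in the P2- and P2+ MEPs and 21.98 and 22.9 CPM in the P2- and P2+ CMPs, and 17 of 27 P2- CMPs and 23 of 56 P2- MEPs had a read. Its log2 ratio was 1.52 (1.29 to 1.76) among P2- cells and 0.91 (0.73 to 1.09) among P2+ cells. Rab40c, whose protein carries a SOCS box that binds a ubiquitin ligase, was at 6.96 and 3.61 CPM in the MEPs (P2- and P2+) and 9.76 and 11.2 CPM in the CMPs. It was assessed among P2+ cells, with a log2 ratio of 1.63 (1.33 to 1.95), from reads in 6 of 47 MEPs and 12 of 42 CMPs, so few cells carry this value.

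Rab4a and Rab35, both Rabs of fast recycling, were each lower in CMPs by at least 2-fold in 1 of these comparisons. Of the 11 assessed members of their class, 2 were higher and 2 lower among P2- cells (18.2% each, background 15.6% and 7.17%) and 1 was higher and 1 lower among P2+ cells (9.09% each, background 12.3% and 6.96%). The summed log2 ratio of the class was 0.12 and 0.00, and Rab11a was at 0.69 and 0.13. Rab4a (chromosome 8, 123805985 to 123835287, plus strand) was at 144 and 120 CPM in the P2- and P2+ MEPs and 62.8 and 70.2 CPM in the P2- and P2+ CMPs, so both MEP populations lay above both CMP populations. Its log2 ratio of CMPs over MEPs was -1.20 (-1.30 to -1.11) among P2- cells and -0.78 (-0.85 to -0.71) among P2+ cells, and the median cell had 136, 108, 51.7 and 59.9 CPM in the 4 populations. Rab35, which acts in fast recycling and in the last step of cell division, was at 57.1, 61.6, 40.9 and 28.7 CPM, with log2 ratios of -0.48 and -1.10. Erythroid markers were mostly higher in MEPs, with 9 of 11 assessed past 2-fold lower in CMPs among P2- cells and 7 of 9 among P2+ cells. The exception past 2-fold was the globin gene Hbb-bt, at 9.51 and 9.79 CPM in the MEPs and 232.2 and 121 CPM in the CMPs (P2- and P2+). Its relative Hbb-bs went the other way, at 65.6 and 111 CPM in the MEPs and 0.55 and 0.61 CPM in the CMPs. Why the 2 globin genes lay opposite was not tested, nor was the part of these markers in the Rab4a and Rab35 values.

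The balance within sets of related Rabs, taken per kilobase, differed most for Rab22a and Rab31, 2 endosomal Rabs of a single subfamily. Rab31 made up 5.36% and 59.6% of the set in the P2- and P2+ MEPs and 89.4% and 89.0% in the P2- and P2+ CMPs. The level of Rab22a was higher in MEPs than in CMPs, at 4.69, 4.44, 2.42 and 2.95 CPM per kb. Rab32 made up 19.2% of the Rab32 and Rab38 set in P2- MEPs and 44.1% in P2+ MEPs, with 34.6% and 30.2% in P2- and P2+ CMPs. Rab27b made up 14.3% of the Rab27 set in P2- MEPs and 40.3% in P2+ MEPs, with 21.9% and 17.5% in P2- and P2+ CMPs. P2+ MEPs thus had the highest share of Rab32 and of Rab27b of the 4 populations.

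In the Rab5 set, Rab5c was the leading gene everywhere, with 74.2% and 72.1% in the P2- and P2+ MEPs and 69.5% and 52.8% in the P2- and P2+ CMPs. Rab37 held at least 78.7% of the set with its relative Rab26 in every population. In 2 further sets a share moved by over 20 percentage points, but on few reads. The Rab3a share of Rab3a and Rab3d, Rabs of regulated exocytosis, lay between 43.4% and 64.3%, and the sets held between 176 and 616 reads. The Rab33a share of Rab33a and Rab33b, which act at the Golgi, lay between 0% and 55.8% of between 69 and 350 reads, and 6 cells in all had a read of Rab33a.

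**Figure D5:**
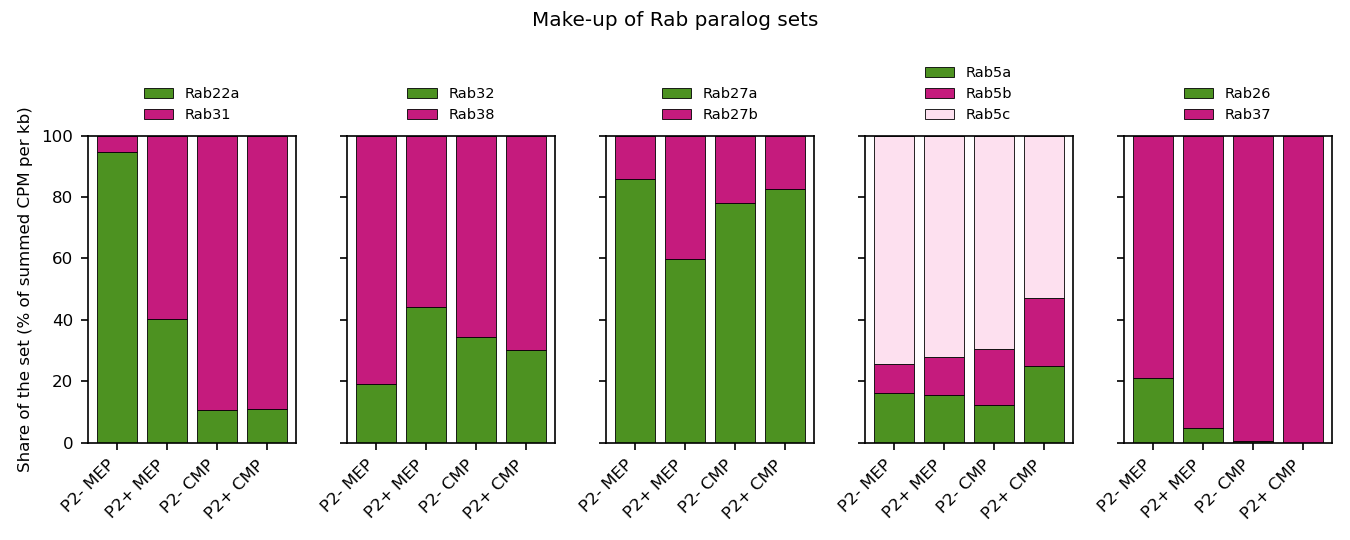
Share of each gene in its set of related Rab genes (% of the summed CPM per kb of the set) in the 4 populations, 1 bar per pooled population. The Rab31 share is lowest in P2- MEPs at 5.36% and reaches 89.4% in P2- CMPs, and the Rab32 and Rab27b shares are highest in P2+ MEPs.

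Of the machinery that serves Rabs, 169 genes were listed by role. The shares past 2-fold are read against the 7.31% higher and 3.64% lower of all genes assessed in MEPs, and on lists this short a share rests on a few genes, so the genes named are single values and not results about a list. Of 14 genes for prenylation, escort and recycling, 12 were assessed in MEPs and 1 was higher in P2+ cells by at least 2-fold. It was Chm, the gene of Rab escort protein 1, which presents new Rabs for prenylation, at 4.999 CPM in P2- and 16.3 CPM in P2+ cells (log2 ratio 1.71, 1.44 to 1.98). Of 39 assessed exchange factors, 4 were higher (10.3%) and 2 lower (5.13%), and of 28 assessed GTPase-activating proteins 4 were higher (14.3%) and 1 lower (3.57%). Dennd2d, a DENN domain exchange factor, had the largest ratio of these lists, with 4.41 CPM in P2- and 41.8 CPM in P2+ cells (3.24, 2.99 to 3.51). Rin3, an exchange factor of the Rab5 subfamily, was at 5.13 and 15.96 CPM (1.64, 1.38 to 1.91) and at 42.2 and 45.4 CPM in P2- and P2+ CMPs. Among the GTPase-activating proteins, Evi5l was at 3.07 (2.72 to 3.45), Tbc1d16 at 2.52 (2.21 to 2.85) and Evi5 at -1.96 (-2.23 to -1.70).

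Of 27 assessed effectors, 4 were higher in P2+ MEPs (14.8%, background 7.31%) and 0 lower (background 3.64%), with a median log2 ratio of 0.38. They were Acap2, Ocrl, Myo5a and Bicd2, with log2 ratios from 1.21 to 1.39, and Myo5a is a motor that moves organelles bearing Rab27a. Of 18 assessed genes for building platelet granules and lysosome-related organelles, 2 were higher (11.1%) and 1 lower (5.56%), which is near the background. Dtnbp1, a BLOC-1 subunit, was at 28.2 CPM in P2- and 87.9 CPM in P2+ cells (1.64, 1.53 to 1.75), and Nbeal2, needed for platelet alpha granules, at 8.72 and 24.6 CPM (1.49, 1.29 to 1.70). Bloc1s5, another BLOC-1 subunit, was lower in P2+ MEPs, at 57.5 and 14.9 CPM (-1.95, -2.10 to -1.81). The remaining 15 genes of that list differed by less than 2-fold, and its median log2 ratio was 0.17.

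The same lists were counted in CMPs, where the background was 4.89% higher and 4.94% lower. None of 13 assessed genes for prenylation, escort and recycling was past the mark. Of 42 exchange factors 2 were higher in P2+ CMPs (4.76%, at the background) and 0 lower. The 2 were Mon1a at 1.85 (1.55 to 2.16) and Dennd4b at 1.27 (1.06 to 1.49), and Mon1a forms part of the exchange factor of Rab7. Of 27 GTPase-activating proteins 3 were higher (11.1%) and 2 lower (7.41%), with the largest ratios for Tbc1d8 at -2.70 (-2.99 to -2.42) and Tbc1d19 at 1.98 (1.70 to 2.27). Of 30 effectors 2 were higher and 2 lower (6.67% each). The largest was Rab11fip2, an effector of the Rab11 proteins, at 0.60 CPM in P2- CMPs with reads in 3 of 27 cells and 10.0 CPM in P2+ CMPs with reads in 15 of 42 cells (4.06, 3.21 to 5.08). Of 19 granule genes 1 was higher, Bloc1s4, and 1 was lower, again Bloc1s5 (5.26% each).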

How the data were processed

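Single cells were sequenced with Smart-Seq2, which reads whole transcripts. As the article and the notes state, the authors trimmed reads with Trimmomatic 0.36, aligned them with STAR 2.4.2a to GRCm38 and counted exon reads with HTSeq 0.6.1p1, without strand. What the authors deposited are raw counts for each gene in each cell and a percent of unmapped reads. The 5 HTSeq tally rows stayed out of all totals: 25.6% of uniquely mapped reads were ambiguous between genes and 7.40% on no gene. No value column lacked a sample (0).

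Cells with under 250000 reads, over 25% unmapped reads or over 15% ERCC reads were removed (172 of 175 remained, with 571806 to 2827426 reads). No doublet caller was run. Counts were summed per population. Intervals at 95% were exact Poisson for CPM, exact conditional binomial for ratios and Clopper-Pearson for shares. A population at 0 was set to 3 reads. Exon lengths, positions and overlaps came from GENCODE vM21 (59 of 59 members matched by identifier). Values named in full belong to members past 2-fold in any comparison, the 5 highest per kb, members of sets whose shares differ by at least 20 percentage points, and members with opposite directions in MEPs and CMPs of at least 1.5-fold each; of each regulator list at most the 4 largest ratios per reporter comparison were named. Members and lists were chosen with earlier results of these data known. Alternatives used DESeq2 1.42.0 and edgeR 4.0.16 (R 4.3.3) for scaling only; ratios were computed with Python 3.11.15, pandas 2.3.3, numpy 2.4.6 and scipy 1.17.1, drawn with matplotlib 3.10.9 and tested on simulated data.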

Additional observations from a re-analysis of the deposited data

Results flagged for a closer look

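For 8 members the log2 ratio of P2+ over P2- cells had opposite signs in MEPs and CMPs, with at least 1.5-fold in each and each counting interval clear of 0. With 1 pooled sample per population, the difference between MEPs and CMPs was not tested for any of them.

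Rab37 was at 2.48 in MEPs and -1.01 in CMPs, a difference of 3.49, and without the highest cell of each population at 2.86 and -1.01. Rab21 was at -1.03 and 0.93, a difference of -1.95, and without the highest cells at -1.25 and 1.44. Rab44 was at 7.15 and -3.66, a difference of 10.8, on 3 reads in P2- MEPs and 29 reads in P2+ CMPs, and it was not assessed in CMPs. Without the highest cells it was at 7.05 and -4.89, the first with P2- MEPs at 0 and set to the floor of 3 reads. The remaining 5 were not assessed in either comparison. Rab33b was at -0.995 and 0.985, a difference of -1.98, with 18.7% of its exon bases shared with another gene, and without the highest cells at -1.36 and 1.84. Rab13, a Rab of epithelial junction traffic, was at 2.50 and -1.99, a difference of 4.49, from reads in 1 to 4 cells of each population, and without the highest cells at 2.57 and -4.78, with P2- MEPs and P2+ CMPs at that floor. Rab33a had 0 reads in P2+ MEPs and 2 in P2- CMPs, and its difference of -8.80 has P2+ MEPs at the floor of 3 reads per population. Without the highest cells Rab33a was at -2.81 and 2.85, with P2- CMPs at the floor too. Rab36 was read in 1 P2+ MEP and 1 P2- CMP and was at 0 in the other populations, so its difference of at least 10.9 on the log2 scale rests on 2 cells. Rab40b was likewise read in 1 cell of each of the same 2 populations, and its difference was at least 5.95.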

How the results depend on the processing

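Of the log2 ratios of members past 2-fold in some comparison, recomputed under 7 other scalings or cell sets, 38 values moved out of the main interval and the rest stayed in it. All 161 values for ratios past 2-fold kept their sign and 149 stayed past 2-fold. The 6 members higher in P2+ MEPs were the same under each of the 7. Counts of members past 2-fold in either direction depended on the minimum: with 10 reads as the only minimum they were 18 instead of 7 (P2+ over P2- MEPs), 13 instead of 1 (P2+ over P2- CMPs), 21 instead of 9 (CMPs over MEPs, P2-) and 22 instead of 6 (CMPs over MEPs, P2+). Most of the 18 lay outside the granule class, which held 5 of the 7. With at least 50% of cells and 10 CPM the counts were 4 in the MEP comparison and 3 in the last. At a log2 ratio of at least 1.5 they were 0 in the CMP comparison, 5 among P2- and 3 among P2+ cells. The CMP count of 1, Rab37, became 0 with DESeq2 size factors, with equal weight per cell and with a denominator without mitochondrial genes and Rn18s-rs5, and 3 without the highest cell of each gene.

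The summed Rab log2 ratio moved little but past its counting interval. With DESeq2 size factors it was 0.221, 0.0295, 0.243 and 0.0514 in the same order of comparisons, with TMM 0.114, 0.085, 0.1998 and 0.170, without the highest cell 0.140, 0.0897, 0.210 and 0.160, and without mitochondrial genes and Rn18s-rs5 0.203, 0.0253, 0.356 and 0.179. With equal weight it was 0.0406 in the CMP comparison and 0.165 for CMPs over MEPs among P2+ cells. The median of all assessed genes shifted by up to 0.12 in size (without the highest cell, CMPs over MEPs, P2-: -0.12; TMM there: -0.10), and leaving out the highest cell moved the share of higher genes among all past 2-fold from 49.8% to 62.9% (P2+ over P2- CMPs) and from 68.5% to 57.1% (CMPs over MEPs, P2-). No paired analysis was possible because the cells of a population carry only cell numbers and come from 1 pool.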
